A study of Homo sapiens with 6 samples.

Results

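The acute phase and antimicrobial genes described here are SAA1, SAA2, LCN2, SERPINA3, PTX3, HP, LBP, CEBPB, CEBPD and BCL3. They are acute phase proteins known as IL6, STAT3 or NF-kB targets with their C/EBP factors, were chosen with earlier results of these data known, and were found by gene name. Each of the 10 names matched 1 of the 58735 genes in the count table. RNA-seq libraries were made from MDA-MB-231, an established human triple-negative breast cancer cell line, and from Adriamycin (ADR) resistant cells derived from it, here called ADRr cells, with 3 libraries from each. ADR is another name for doxorubicin, an anthracycline that poisons topoisomerase II. Parent cells and ADRr cells were both kept in DMEM with fetal bovine serum. Resistant cells were raised by stepwise exposure to increasing ADR and cloned by limiting dilution, so the ADRr libraries stand for a clonal line. Whether the drug was in the medium at harvest was not stated. The comparison asks how these genes differ between resistant cells and the cells they came from.

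The acute phase response is the change in secreted proteins that follows injury or infection, and the liver is its main source. IL6 signals through STAT3, and IL1 through NF-kB, to the promoters of acute phase genes, where they act together with C/EBP transcription factors. Epithelial and cancer cells also make several of these proteins, among them serum amyloid A and lipocalin 2.

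Of the 10 genes, 7 had enough counts to be tested. Serum amyloid A fell most in ADRr cells (SAA1 by 6.50-fold and SAA2 by 11.6-fold), and the transcription factor CEBPD and the NF-kB cofactor BCL3 also fell. PTX3 rose 3.00-fold, and LCN2 and CEBPB rose by less. A gene was called when its adjusted p in edgeR's quasi-likelihood test was at most 0.05 and its fold change at least 1.2 in either direction. By this rule 3 genes were called higher, where 29.2% of all 15242 tested genes were, and 4 were called lower, against 29.6%. In all 7 the 3 parent libraries and the 3 ADRr libraries did not overlap, which was also so for 69.2% of tested genes. A call alone therefore set none of these genes apart from the rest. The median absolute log2 fold change of the 7 genes was 0.90, against 0.46 over all tested genes, and their median signed value was -0.77, against -0.0061. The other 3 genes, SERPINA3, HP and LBP, had at most 3 counts in every library and were not tested.

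Total counts ranged from 15983985 to 18272314 per library, and 3 counts correspond to 0.164 to 0.188 CPM, that is, counts scaled to equal library totals. Libraries of 1 group differed by more than sampling noise (chi-square per degree of freedom 2.59 to 8.32), so no library was a repeat of another, and libraries of different groups differed far more (119 to 135). No label says that the 3 libraries of a group came from separate cultures, so p-values measure the spread between these libraries only. The summed level of 12 basal and mesenchymal markers of the line was 6708 to 6838 CPM in parent cells and 6692 to 6750 CPM in ADRr cells, although of 11 tested 3 were called higher (EGFR, ZEB1 and CD44) and 5 lower (CAV1 by 1.30 on the log2 scale, TGFBI, S100A4, AXL and VIM). The hormone receptor genes ESR1 and PGR had at most 1 count in any library. The 12 luminal and epithelial markers summed to 1199 to 1352 CPM in parent cells and 707 to 728 CPM in ADRr cells. Of these, 8 were tested, 5 were called lower (KRT8 by 2.00 on the log2 scale) and 2 higher (XBP1 and EPCAM), and the part of this shift in the results below was not tested.

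**Figure D1:**
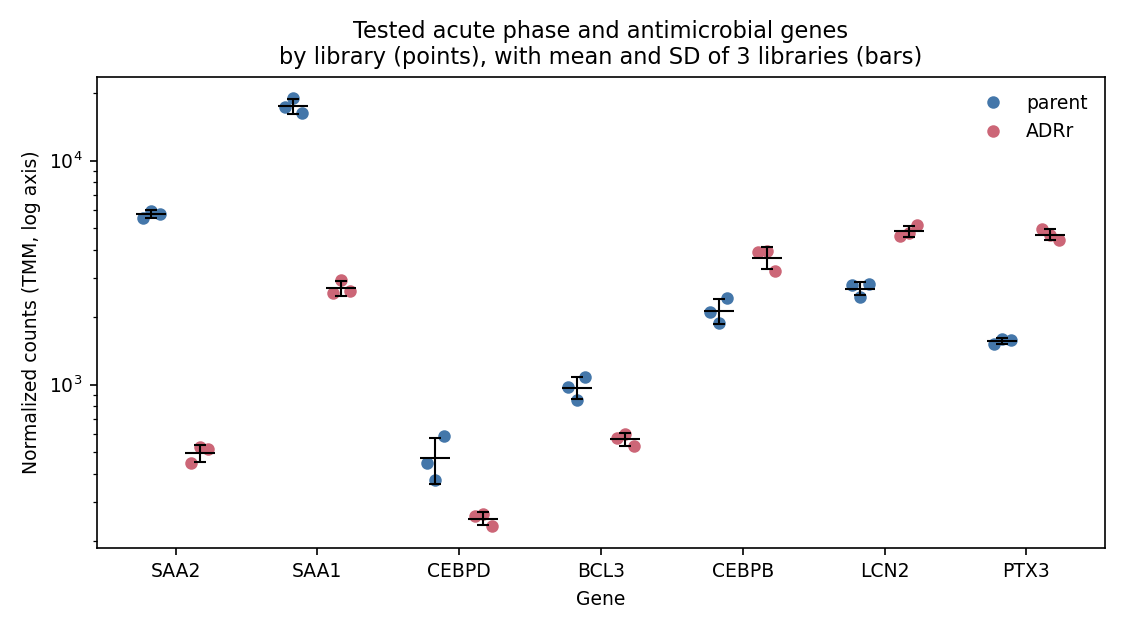
Normalized counts (TMM, log axis) of the 7 tested genes in each of 3 parent and 3 ADRr libraries, with points for libraries and bars for the mean and SD. In each gene the 3 parent points and the 3 ADRr points do not overlap, and the gap is widest for SAA2 and SAA1.

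SAA1 and SAA2 encode the inducible serum amyloid A proteins, small apolipoproteins that travel on high-density lipoprotein. The 2 genes lie on chromosome 11 (GRCh38) in opposite directions, SAA1 (ENSG00000173432) at chr11:18266174-18269977 on the plus strand and SAA2 (ENSG00000134339) at chr11:18239223-18248643 on the minus strand. Their coding sequences are so alike that reads can match both. Both are 369 bases long and differ at 11 bases (97.0% identity), with an identical run of 186 bases. The stretch with most differences, bases 174 to 323 of the coding sequence in the GENCODE 29 transcripts, is shown with the 10 differing bases in capitals, because only reads that reach such bases can tell the genes apart within the coding part:
SAA1: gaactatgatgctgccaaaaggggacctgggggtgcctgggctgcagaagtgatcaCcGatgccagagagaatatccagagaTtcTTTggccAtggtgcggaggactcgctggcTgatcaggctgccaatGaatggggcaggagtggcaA
SAA2: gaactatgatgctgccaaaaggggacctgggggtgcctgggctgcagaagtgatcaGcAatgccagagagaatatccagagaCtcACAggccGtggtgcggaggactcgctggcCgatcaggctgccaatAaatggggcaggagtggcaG
Over whole exons, 35.0% of the 75-base windows of SAA1 also occur in SAA2, and 13.6% of those of SAA2 occur in SAA1. The study's reads were paired and longer than these windows, so a smaller share of them may match both genes. How the counting treated reads that match both was not stated, so the split between the 2 genes is uncertain while their sum is less so.

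SAA1 normalized counts were 17401, 18974 and 16227 in the parent libraries and 2554, 2936 and 2603 in the ADRr libraries. All ADRr libraries lay far below all parent libraries and the coefficient of variation was 7.86% and 7.72% within the groups. The mean fell from 17534 ± 1378 to 2698 ± 208 (SD, n = 3 each), a log2 fold change of -2.70 (SE 0.062, edgeR adjusted p = 7.2e-20), which was the decrease of rank 137 among tested genes. SAA1 took 0.0934 to 0.110% of all counts in parent cells and 0.0151 to 0.0173% in ADRr cells. In FPKM, which divides by gene length, it was the gene of rank 20 in parent cells (1259 ± 99.8) and of rank 129 in ADRr cells (194 ± 14.5), so it remained one of the more abundant transcripts. In bulk RNA, fewer cells making a transcript and less of it in each cell cannot be told apart.

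SAA2 normalized counts were 5543, 5974 and 5795 in the parent libraries and 445, 525 and 516 in the ADRr libraries. Again the groups were wide apart. The log2 fold change was -3.54 (SE 0.066, edgeR adjusted p = 3.5e-21), from 5770 ± 216 to 496 ± 43.8 and was the decrease of rank 67 among tested genes. In FPKM, SAA2 moved from rank 182 (148 ± 5.25) to rank 3779 (12.8 ± 1.12). Its annotated length is 2227 bases, against 796 for SAA1, which lowers its FPKM relative to SAA1. The counts of SAA2 overlap in part with a read-through transcript: 267 of its exon bases (11.99%) also belong to SAA2-SAA4, which had 0, 3 and 0 counts in the parent libraries and 1, 2 and 4 in the ADRr libraries.

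The 2 genes did not fall by the same factor. Each library held 3.14, 3.18 and 2.80 SAA1 counts per SAA2 count in parent cells and 5.74, 5.59 and 5.04 in ADRr cells. The log2 ratio was higher by 0.84 in ADRr cells, with no overlap between groups (exact two-sided permutation test, p = 0.1, the smallest that 3 against 3 libraries allow). With SAA1, SAA2, SAA4 and SAA2-SAA4 summed to 1 feature, the log2 fold change was -2.86 (edgeR adjusted p = 1.5e-20). The sum does not depend on how counted reads were split among these genes. Reads left out of the counts for matching more than 1 gene would not be regained by it.

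SAA4, the constitutive serum amyloid A gene beside SAA2, was low throughout, with 33, 41 and 34 counts in parent cells and 6, 23 and 8 in ADRr cells. Its log2 fold change was -1.60 (SE 0.41, edgeR adjusted p = 0.0017), and ADRr library 2 stood apart from the other two. Without that library it was -2.46. No 75-base window of SAA1 or SAA2 occurs in SAA4. SAA4 does overlap the read-through gene SAA2-SAA4 on the same strand, and how reads over both were counted was not stated. The pseudogene SAA3P had 0 counts in every library.

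LCN2 encodes a secreted protein that binds bacterial siderophores and so withholds iron, and PTX3 encodes a long pentraxin, a soluble pattern recognition molecule that opsonizes microbes. LCN2 (ENSG00000148346) lies at chr9:128149071-128153455 and PTX3 (ENSG00000163661) at chr3:157436789-157443628, both on the plus strand of GRCh38. RefSeq promoter windows of 300 bases (GRCh38.p14) ran from 250 bases before to 50 after the annotated start. Those of 5 of the 10 genes were used: LCN2, SERPINA3, PTX3, CEBPB and BCL3. They were searched on both strands for the letters of an NF-kB site (GGGANNNNCC), a C/EBP site (TTGCNNAA) and a STAT site (TTCNNNGAA), which occur in 25.6%, 10.5% and 7.66% of all 35116 promoter windows of that length. The windows of the 2 acute phase genes that rose and of BCL3, which fell, are shown with matches in capitals:
LCN2, chr9:128149203-128149502, plus strand: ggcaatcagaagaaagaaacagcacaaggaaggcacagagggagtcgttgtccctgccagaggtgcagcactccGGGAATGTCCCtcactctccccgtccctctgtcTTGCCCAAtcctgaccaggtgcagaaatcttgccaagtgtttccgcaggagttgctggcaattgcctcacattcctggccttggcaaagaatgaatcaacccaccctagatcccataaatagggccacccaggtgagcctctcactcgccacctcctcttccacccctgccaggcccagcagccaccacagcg
PTX3, chr3:157436600-157436899, plus strand: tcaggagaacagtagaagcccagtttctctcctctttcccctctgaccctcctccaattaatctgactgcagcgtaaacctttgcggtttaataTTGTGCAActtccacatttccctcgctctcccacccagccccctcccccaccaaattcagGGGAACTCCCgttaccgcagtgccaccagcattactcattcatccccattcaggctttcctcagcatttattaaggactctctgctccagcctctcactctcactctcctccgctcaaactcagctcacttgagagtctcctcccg
BCL3, chr19:44748458-44748757, plus strand: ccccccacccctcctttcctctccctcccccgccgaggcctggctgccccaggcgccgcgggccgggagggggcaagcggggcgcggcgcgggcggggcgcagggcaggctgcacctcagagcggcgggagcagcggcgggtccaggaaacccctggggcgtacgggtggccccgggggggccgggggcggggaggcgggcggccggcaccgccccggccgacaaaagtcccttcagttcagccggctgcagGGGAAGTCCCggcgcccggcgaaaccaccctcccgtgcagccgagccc
With the start site as position 0, LCN2 held NF-kB letters at -176 and -175 (overlapping matches on opposite strands) and C/EBP letters at -143, while PTX3 held NF-kB letters at -96 and C/EBP letters at -156. BCL3 held NF-kB letters at 2 and no C/EBP letters. In the windows not shown, SERPINA3 held NF-kB letters at -67 and CEBPB at -71 and 32. No STAT letters were found in any of the 5 windows. All 5 windows held NF-kB letters, those of LCN2, PTX3 and CEBPB, which rose, of BCL3, which fell, and of SERPINA3, which was not tested. As no window lacked them, the search cannot tell whether the letters go with the direction of change. Windows of SAA1, SAA2 and CEBPD, which also fell, were not searched. The start used for LCN2 lies 382 bases inside the gene as the count table annotates it, and that for BCL3 lies 1003 bases inside.

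LCN2 normalized counts were 2771, 2471 and 2803 in the parent libraries and 4605, 4741 and 5152 in the ADRr libraries. The lowest ADRr library was well above the highest parent library. The mean rose 1.80-fold, from 2682 ± 183 to 4833 ± 285 (SD, n = 3 each), or 0.85 on the log2 scale (SE 0.059, edgeR adjusted p = 1.5e-11). In FPKM it moved from rank 352 (95.9 ± 6.597) to rank 144 (173 ± 10.6).

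PTX3 normalized counts were 1511, 1596 and 1577 in the parent libraries and 4949, 4661 and 4416 in the ADRr libraries. PTX3 had the tightest parent values of the 7 genes, with a coefficient of variation of 2.86%. It rose 3.00-fold, from 1561 ± 44.6 to 4676 ± 267, a log2 fold change of 1.58 (SE 0.056, edgeR adjusted p = 1.3e-16), and its FPKM moved from rank 900 (mean 46.0) to rank 218 (mean 138). PTX3 lies within VEPH1, a gene on the other strand with which it shares 71 exon bases (3.66%). VEPH1 had a mean of 30.9 normalized counts in parent cells and 43.5 in ADRr cells, far fewer than PTX3 in either group.

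The order of the secreted proteins per length changed with these shifts. In parent cells FPKM ran from SAA1 (1259) through SAA2 (148), LCN2 (95.9) and PTX3 (46.0), and no 2 of them overlapped between libraries. The place of SAA2 depends on its longer annotated length. In parent library 1, SAA1 per SAA2 was 8.78 in FPKM and 3.14 in counts. In ADRr cells the order was SAA1 (194), LCN2 (173), PTX3 (138) and SAA2 (12.8). There the ranges of SAA1 and LCN2 overlapped between libraries, since the lowest SAA1 library (184) was under the highest LCN2 library (185). Within each ADRr library SAA1 was still above LCN2. LCN2 FPKM per SAA1 FPKM was 0.0793, 0.0649 and 0.0861 in parent cells and 0.898, 0.804 and 0.986 in ADRr cells, a log2 difference of 3.55. PTX3 also rose relative to LCN2, by 0.73 on the log2 scale. Across the 4 ratios computed, each gave p = 0.1 in the exact two-sided permutation test, the smallest possible, and 0.1 after Benjamini-Hochberg adjustment.

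SERPINA3 encodes alpha-1-antichymotrypsin, a serine protease inhibitor, HP encodes haptoglobin, which binds free haemoglobin, and LBP encodes the lipopolysaccharide binding protein that hands endotoxin to CD14. SERPINA3 had 0 counts in each parent library and 3, 0 and 2 in the ADRr libraries. LBP had 0 counts in each parent library and 1, 2 and 2 in the ADRr libraries. HP had 1, 0 and 0 counts in the parent libraries and 0 in each ADRr library, and its near copy HPR had a single count in all. With both groups at or under 3 counts no fold was computed, and a difference in these genes was not detectable at this depth. SERPINA3 shares 1592 exon bases (31.8%) with the overlapping gene AL049839.2, and how reads over exons shared by overlapping genes were counted was not stated.

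CEBPB and CEBPD encode CCAAT/enhancer binding proteins, basic leucine zipper transcription factors that bind acute phase promoters, and BCL3 encodes a nuclear IkB family protein that binds NF-kB p50 and p52 homodimers. CEBPB (ENSG00000172216) lies at chr20:50190734-50192689 on the plus strand, CEBPD (ENSG00000221869) on chromosome 8 on the minus strand and BCL3 (ENSG00000069399) at chr19:44747705-44760044 on the plus strand. The 2 C/EBP genes moved in opposite directions.

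CEBPB normalized counts were 2101, 1890 and 2426 in the parent libraries and 3914, 3927 and 3219 in the ADRr libraries. The groups were apart, although both were spread by over 10% of their mean. The mean rose 1.72-fold, from 2139 ± 270 to 3687 ± 405, a log2 fold change of 0.78 (SE 0.079, edgeR adjusted p = 9e-09). CEBPB shares 231 exon bases (11.8%) with the antisense gene CEBPB-AS1, and as strand use in the counting was not stated, reads in that stretch cannot be assigned to one or the other. CEBPB-AS1 had 8, 16 and 6 counts in parent cells and 34, 24 and 27 in ADRr cells (log2 fold change 1.41, SE 0.40, edgeR adjusted p = 0.0039).

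CEBPD normalized counts were 446, 375 and 588 in the parent libraries and 259, 265 and 233 in the ADRr libraries. Every ADRr library was below every parent library, and parent libraries varied more (coefficient of variation 23.1%) than ADRr libraries (6.80%). The mean fell 1.87-fold, from 470 ± 109 to 252 ± 17.1, a log2 fold change of -0.90 (SE 0.13, edgeR adjusted p = 1.5e-06). CEBPB FPKM per CEBPD FPKM was 5.25, 5.61 and 4.59 in parent cells and 16.8, 16.5 and 15.4 in ADRr cells, a log2 difference of 1.66.

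BCL3 normalized counts were 980, 854 and 1076 in the parent libraries and 580, 601 and 530 in the ADRr libraries. The groups did not overlap. The mean fell 1.70-fold, from 970 ± 112 to 570 ± 36.03, a log2 fold change of -0.77 (SE 0.084, edgeR adjusted p = 3.8e-08).

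**Figure D2:**
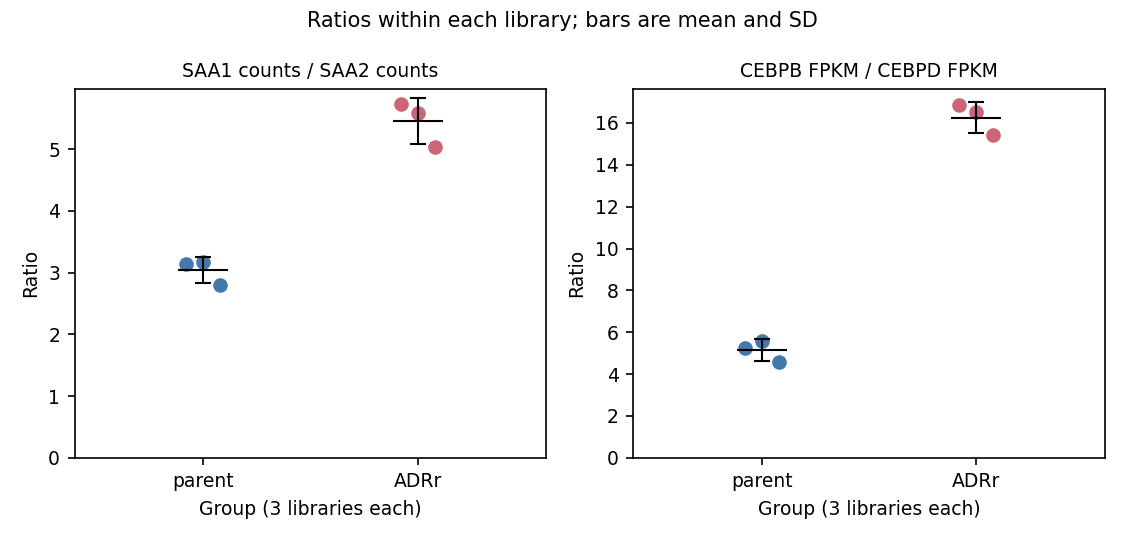
Ratios within each library, SAA1 counts to SAA2 counts on the left and CEBPB FPKM to CEBPD FPKM on the right, with points for the 3 libraries of each group and bars for the mean and SD. The ADRr libraries sit at 5.04 to 5.74 on the left and 15.4 to 16.8 on the right, all above the parent libraries.

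**Figure D3:**
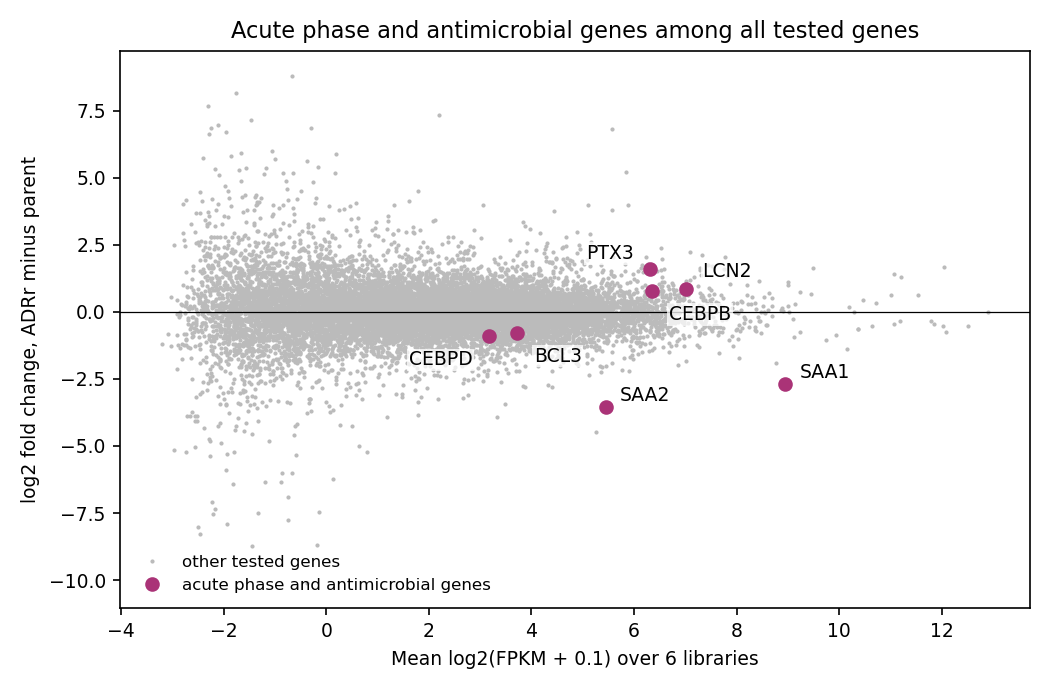
Log2 fold change (ADRr minus parent) against mean log2(FPKM + 0.1) over 6 libraries for all 15242 tested genes in grey, with the 7 tested genes described here in purple. SAA1 and SAA2 lie at -2.70 and -3.54, while the other 5 lie within 1.58 of 0.

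Genes beside these genes were compared to see whether their surroundings moved too, taking up to 3 tested coding genes on each side within 500000 bases. By the same rule 29.2% of all tested genes were called higher and 29.6% lower, so the counts below only describe these neighbours. Of the 6 neighbours of SAA1, 1 was called higher and 3 lower. Next to it, HPS5 lay 8691 bases away and did not pass the test (-0.07 on the log2 scale), GTF2H1 was called higher (0.49) and LDHA was called lower (-0.88). On the other side, SAA2 and SAA4 were called lower, and SAAL1, beyond them, was at 0.03 and did not pass the test. None of the 3 genes around PTX3 passed the test (0.16 to 0.49). Of the 6 genes around LCN2, 1 was called higher and 2 lower, and they ranged from -1.54 (DNM1) to 0.60 (SLC25A25), with the nearest, C9orf16, at 0.21 and not called. Around CEBPB, 3 of 5 genes were called lower and none higher, from TMEM189 (-0.68) and PTPN1 (-0.46) to RIPOR3 (-3.13), while UBE2V1 was not called (0.05). Around CEBPD, 2 of 4 genes were called lower, SPIDR at a distance of 603 bases (-0.55) and MCM4 (-1.06), and PRKDC was not called (-0.13). Of the 6 genes around BCL3, 2 were called higher and 3 lower, among them PVR (0.81), CEACAM19 (0.46) and BCAM (-0.44). LDHA, DNM1, SLC25A25, PTPN1, RIPOR3, MCM4 and PVR were named after their values were seen, as the larger changes among the neighbours.

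**Figure D4:**
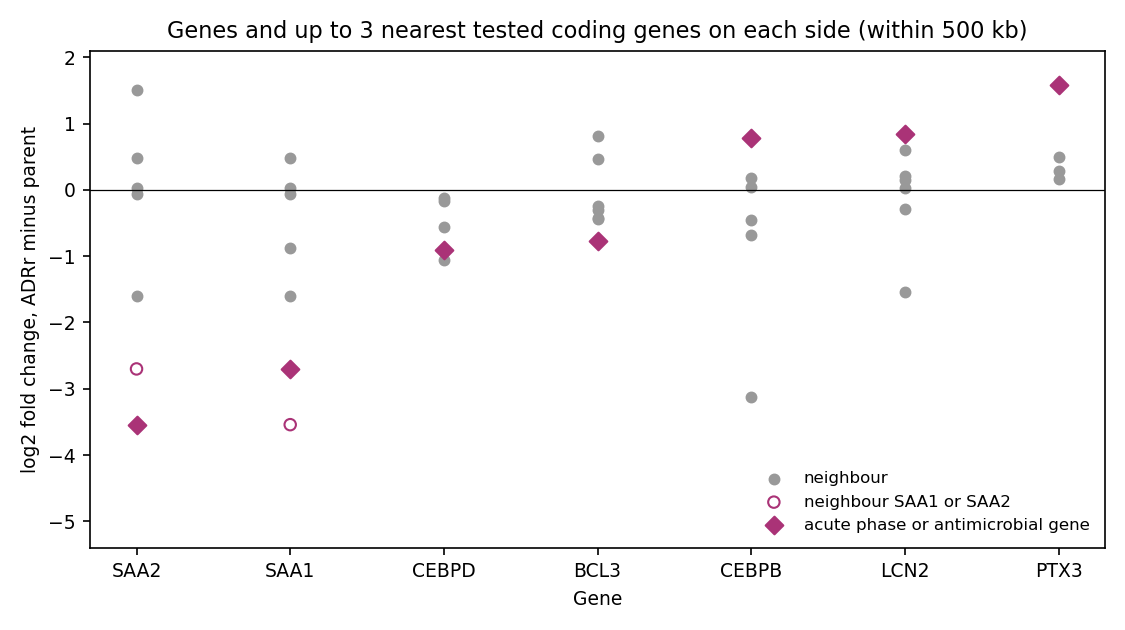
Log2 fold change (ADRr minus parent) of each tested gene (diamonds) and of up to 3 nearest tested coding genes on each side within 500000 bases (grey points), with open circles where the neighbour is SAA1 or SAA2. PTX3, LCN2 and CEBPB lie above all of their neighbours, and SAA2 and BCL3 lie below all of theirs.

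Related genes were counted in 6 lists of the same biology. Leaving out the 10 genes above, the lists name 148 genes, of which 80 were tested, 40 were called higher and 20 lower. That is 50% higher and 25% lower, beside 29.2% and 29.6% of all tested genes. The lists were also chosen with earlier results of these data known, so these shares only describe the genes listed.

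Of 34 other acute phase genes, 18 had at most 3 counts in every library, among them CRP and the fibrinogen genes FGA, FGB and FGG. Of 12 tested, 7 were called higher and 4 lower (median log2 fold change 0.51). IL1RN, the IL1 receptor antagonist, rose by 1.85 on the log2 scale, SOD2, the mitochondrial superoxide dismutase, by 1.197 and TIMP1, a metalloproteinase inhibitor, by 0.74. IL1RN was low, with 12, 5 and 9 counts in parent cells and 39, 22 and 39 in ADRr cells. Complement C3 (-0.62) and complement factor B, CFB (-0.59), fell along with SAA4, and VNN1, the vanin 1 gene, was the fourth (-0.47). The 31 other antimicrobial and iron-withholding genes were mostly silent, with 21 at 3 counts or fewer in every library, including the cathelicidin gene CAMP and the calprotectin genes S100A8 and S100A9. Only 4 were tested, none was called higher, and 2 were called lower. These were ADM (-1.03), which encodes adrenomedullin, and LTF, the lactoferrin gene, which had 12, 18 and 17 counts in parent cells and 6, 3 and 1 in ADRr cells.

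Among 25 receptors and partners of the encoded proteins, 11 were tested, 4 were called higher and 4 lower (median -0.16). MMP9, a gelatinase that forms a complex with LCN2 protein, had a mean of 12.9 normalized counts in parent cells and 218 in ADRr cells (4.05 on the log2 scale). TLR4 (1.57) and its partner LY96 (1.64), which sense endotoxin together with CD14, rose as well, while CD14 was at -0.16 and did not pass the test. FPR1, a formyl peptide receptor (-2.53), HAS2, a hyaluronan synthase (-3.33), and LRP1, an endocytic receptor (-1.10), fell. The remaining calls were TLR2 (0.88) and the lipoprotein receptor SCARB1 (-0.33). Of the LCN2 receptors, SLC22A17 had 0 counts in every library, and LRP2 had 0 in each parent library and 2, 4 and 7 in the ADRr libraries.

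Most tested genes of the C/EBP family and its partners rose. Of 11 tested genes, 9 were called higher and 1, CEBPD, lower (median 1.11). TRIB3, a pseudokinase, rose by 2.78, DDIT3, a C/EBP family member of the stress response, by 2.47 and ATF3, a stress-induced bZIP factor, by 2.12. CEBPG rose from 846 ± 91.9 to 3433 ± 54.0 normalized counts (2.02 on the log2 scale, SE 0.067, edgeR adjusted p = 3.9e-17), while CEBPA had at most 9 counts in any library. CEBPB belongs to this list, and its own rise was smaller than the list's median.

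All 17 BCL3 partners and related IkB genes were tested, with 8 called higher and 5 lower, BCL3 included (median 0.21). RELB (1.65), TNFAIP3 (1.40), a deubiquitinase that restrains NF-kB, and CYLD (1.25), another deubiquitinase, rose. The 2 NF-kB precursors whose products BCL3 binds were NFKB2, which rose by 1.13, and NFKB1, which was at 0.21 and not called. CTBP1, a corepressor (-0.88), and NFKBIA, the classical IkB (-0.79), fell beside BCL3, as did the nuclear IkB genes NFKBIZ (-0.32) and NFKBID (-0.67). LTF, VNN1, TLR2, SCARB1 and NFKBID were named after their values were seen, to complete these counts.

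Of 32 genes of upstream cytokine signalling, 28 were tested, 13 were called higher and 6 lower (median 0.28). The ligand IL1A rose by 5.23 on the log2 scale and IL1B by 3.78, and the receptor IL6R rose from a mean of 10.5 to 171 normalized counts. IL6 itself rose by 1.97, STAT3 by 0.46 and RELA by 0.38. SOCS3, a feedback inhibitor that STAT3 induces, fell by 1.10 (SE 0.095, edgeR adjusted p = 7.2e-10), the IL17 receptor chain IL17RC by 1.08 and PIAS3, an inhibitor of STAT3, by 0.79.

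**Figure D5:**
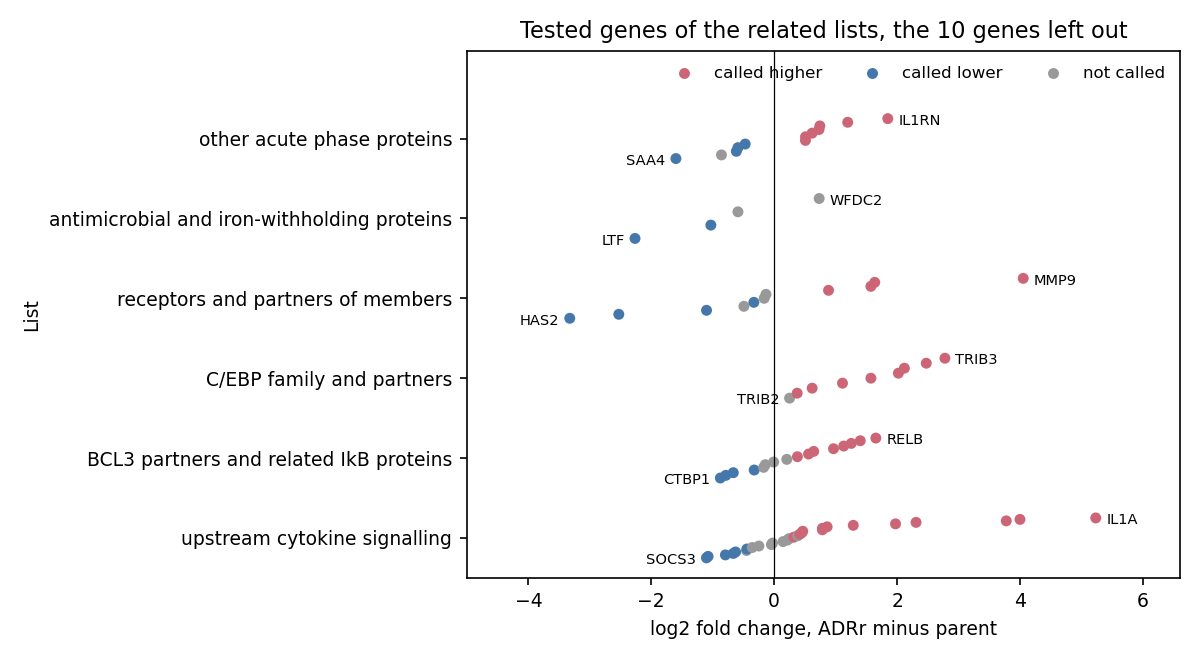
Log2 fold change (ADRr minus parent) of each tested gene in the 6 related lists, with SAA1, SAA2, LCN2, SERPINA3, PTX3, HP, LBP, CEBPB, CEBPD and BCL3 left out and the extreme gene on each side named. Genes called higher are red, genes called lower are blue and genes not called are grey, and in the C/EBP list no gene shown was called lower.

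Markers of other cell types were also examined. All 12 hepatocyte markers were too low to test, with ALB at 0 counts in every library and a sum of 0.660 to 0.946 CPM in parent cells and 0.732 to 0.871 CPM in ADRr cells. Of 16 leukocyte markers, 11 had at most 3 counts in every library and PTPRC at most 2. Their sum was 54.5 to 59.9 CPM in parent cells and 85.8 to 89.7 CPM in ADRr cells, and most of it was LAPTM5, which had 853 to 945 counts in parent cells and 1444 to 1574 in ADRr cells. Of 2 leukocyte markers tested, LAPTM5 was called higher and CSF1R lower, and their part in the results above was not tested. The 10 acute phase and antimicrobial genes summed to 1778 to 1873 CPM in parent cells and 972 to 1029 CPM in ADRr cells. Most of the parent sum was SAA1 and SAA2, and the lower sum reflects their fall. SAA1 went from a mean of 17534 to 2698 normalized counts and SAA2 from 5770 to 496. LCN2, PTX3 and CEBPB rose, while CEBPD and BCL3 fell.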

How the data were processed

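RNA from 3 parent and 3 ADRr samples of MDA-MB-231 cells was sequenced by the authors as paired-end reads. The study's methods name HISAT2 for mapping and featureCounts for counting, after cleaning of the reads. The submitters' processing notes give the versions 2.0.5 and 1.5.0-p3 and the build GRCh38. Strand use and the handling of reads that match more than 1 gene are not given in the sources used here. The authors deposited whole-number counts per gene, not normalized, and FPKM values (counts per gene length and library total).

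From the counts, fold changes were fitted with edgeR 4.0.16 in R 4.3.3 (TMM, filterByExpr, quasi-likelihood test, Benjamini-Hochberg adjustment over 15242 tested genes), and a gene was called where its adjusted p was 0.05 or less and it changed 1.2-fold or more. Normalized counts are CPM scaled to the mean effective library size. The 10 genes and the gene lists were chosen with earlier results of these data known. Named were all 10 genes, their copies, overlapping genes and nearest neighbours, 10 regulators, and in each list up to 3 called genes each way whose higher group averaged 20 normalized counts or more. Alternatives used DESeq2 1.42.0, limma 3.58.1 on log2(FPKM + 1) and log2(FPKM + 0.1), other scalings and filters, and fits without each library. The code was tested on simulated data. The series mentions time points that no sample label carries, so libraries of a group were taken as replicates.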

Additional observations from a re-analysis of the deposited data

How the results depend on the processing

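The 3 calls of a rise and the 4 of a fall held in every alternative scaling, filter and tool and without each library, and the log2 fold changes ranged from -2.76 to -2.65 for SAA1, -3.58 to -3.44 for SAA2, 0.79 to 0.89 for LCN2, 1.55 to 1.62 for PTX3, 0.70 to 0.88 for CEBPB, -1.05 to -0.71 for CEBPD and -0.86 to -0.69 for BCL3. The 4 SAA genes summed to 1 feature gave -2.86. The exception was a threshold of 1.2 on the absolute log2 fold change, which by its construction left 1 gene higher (PTX3) and 2 lower (SAA1 and SAA2). It also left 18 higher and 4 lower calls in the related lists, where the usual rule gave 40 and 20, and 1114 higher and 972 lower calls over all genes, where it gave 4451 and 4507. SAA4 ranged from -2.46 to -1.05 and CEBPB-AS1 from 0.39 to 1.95, the latter called in 12 of 12 alternatives that gave it a value. With HP and HPR summed the feature was still too low to test. Same-numbered libraries did not deviate together (r = 0.010, -0.049 and -0.062), and other pairs of parent and ADRr libraries gave -0.037 to 0.087. No shared deviation was seen, but these values cannot exclude that libraries were handled in pairs. A replicate block again called 3 of the 10 genes higher and 4 lower, 40 and 20 genes of the related lists, and 4406 and 4464 of all genes. With 3 libraries per group no exact permutation test of a single value can go below p = 0.1, and SERPINA3, HP and LBP are at or under 3 counts.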
